A study of Mus musculus with 2 samples.

Results

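The genes described here encode the machinery that starts transcription by RNA polymerase II, namely the Mediator complex, the polymerase itself, the TBP-associated factors (TAFs) and the general transcription factors. They were compared between stromal cells of a conditional knockout (cKO) and of floxed control mice. Members were taken by gene symbol, as every gene with a probe set of its own whose symbol starts with Med or Taf and a digit or with Gtf2, or is Polr2 followed by one of the subunit letters a to m. This gave 65 of the 12393 genes on the arrays, of which 27 are Mediator genes, 11 polymerase genes, 15 TAF genes and 12 genes of general factors. The members were chosen by symbol, and no signal entered that rule, but the set was proposed with the log2 ratios of these arrays in view, so the ratios below are a description and carry no test.

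Uterine stromal cells, the connective tissue cells under the uterine epithelium that decidualize around an implanting embryo, were obtained by enzymatic digestion of uterine horns on day 5 of pregnancy. Cells of 3 animals were pooled for each genotype, and 1 Affymetrix Mouse Genome 430A 2.0 array was hybridized for each pool. The cKO array is titled Hif1 cKO, its genotype field reads Hif2 alpha-null, and its breeding note names Hif1 floxed mice, PRcre mice and ablation of Rac1. The control array is titled Hif1 flox control and its genotype field reads Hif2 alpha-intact. PRcre stands for a Cre recombinase driven by the progesterone receptor promoter, so deletion is limited to cells that express or have expressed that receptor. The labels do not agree on the deleted gene, and the signals of the candidate genes did not settle it. Epas1, which encodes HIF2 alpha, had a signal of 78.1 on the cKO array and 59.4 on the control array. Hif1a had 1544 and 721 in the same order at its brightest probe set, and Rac1 had 757 on the cKO array and 1038 on the control array, with 332 and 664 at its second probe set, 2.00-fold lower. Where the probes lie relative to any deleted exon was not analysed here, so the cKO array carries its label only.

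RNA polymerase II is a multi-subunit enzyme that makes all messenger RNA. It is brought to promoters by general factors (TFIIA, TFIIB, TFIID, TFIIE, TFIIF and TFIIH), where TFIID is TBP with its TAFs, and Mediator carries signals from activators bound at enhancers to the polymerase. Several Mediator subunits are known contact points of nuclear receptors, the receptor class through which progesterone and oestrogen act on uterine stroma.

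The values are MAS5 signals, which are intensities on a linear scale with 1 value per probe set. Signals were raised to a floor of 19.7, the 40th percentile of both arrays, before the log2 ratio of the cKO array over the control array was taken at the brightest probe set of each gene. Where only 1 of the signals exceeded the floor the ratio is a bound, and 3800 genes that exceeded it on neither array were left out, so that 8593 genes were compared. Different probe sets of a gene gave different ratios, with an SD of 0.64 for 1 log2 ratio over 2660 genes, and this is the only error these arrays allow. It leaves out animals, pools and arrays. The number of arrays limits the precision.

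The RNA on the arrays also differed in quality and in cell markers, and the part of either in the results below was not tested. The ratio of 3' to 5' signal of b-actin was 16.0 on the cKO array and 2.27 on the control array, and that of Gapdh was 7.25 and 1.49 in the same order. The stromal markers were present on both arrays, and of 11 genes 5 were lower and 6 higher at their brightest probe sets. Of these, 1 was at least 2-fold lower, Hoxa11 (-1.85). The summed signals were 33426 on the cKO array and 24437 on the control array, and rest mostly on Col3a1, Vim and Dcn. Second probe sets differed for Pdgfra (-1.70, brightest -0.002), Col1a1 (-1.26, brightest 0.59) and Nr2f2 (0.81, brightest -0.54). Pgr, the progesterone receptor itself, had 29.7 on the cKO array and 52.6 on the control array, and Esr1 lay near the floor with 19.8 and 18.4 in the same order. All 6 endothelial markers were lower, 4 of them at least 2-fold, with summed signals of 943 on the cKO array and 1938 on the control array. Leukocyte markers went both ways at their brightest probe sets, 5 of 8 past 2-fold downwards and 2 upwards, namely Ptprc (1.74) and C1qb (1.58). The sums were 3392 on the cKO array and 3724 on the control array. The probe sets of C1qb disagreed, as the second gave 0.54 and the third had 48.3 on the cKO array and 310 on the control array (-2.68). The third of Csf1r gave -0.88, where the brightest gave 0.44. Of 6 epithelial markers above the floor, 3 were lower, with Krt18 (-2.20) and Cldn3 (-1.74) past 2-fold, and 3 higher, namely Krt8 (0.64), Cdh1 (0.58) and Foxa2 (0.75), and the list summed to 1772 on the cKO array and 2171 on the control array. Of 6 smooth muscle and pericyte markers, 4 were lower, with Des (-1.67) and Cnn1 (-1.38) past 2-fold, while Acta2 (0.56) and Rgs5 (0.57) were higher, and the sums were 11090 on the cKO array and 9952 on the control array. Both measured erythrocyte markers were at the floor. In such bulk samples fewer cells of a type and less RNA per cell cannot be told apart.

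Of the 65 members, 61 lay above the floor on at least 1 array and were compared. On the cKO array 8 of them were at least 2-fold lower, where 13.0% of all genes compared were. None was at least 2-fold higher, where 6.21% of all genes were. The share of members at least 2-fold lower was 13.1%, which is the background share, so the count of large decreases is not a result about these genes. Their smaller differences leaned one way. By any amount, 43 of the 61 members were lower (70.5%), where 55.3% of all genes compared were lower, and the median log2 ratio was -0.45 for the members and -0.10 for all genes. Mediator and the polymerase had medians of -0.60 and -0.57. The TAFs and general factors had medians of -0.17 and -0.16, which turned positive under each of the 3 other scalings tried. That of the general factors was -0.54 with the median over the probe sets of a gene and -0.48 without probe sets that can match several transcripts, so relative to all genes it was -0.06 as deposited and -0.37 and -0.28 in these.

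**Figure D1:**
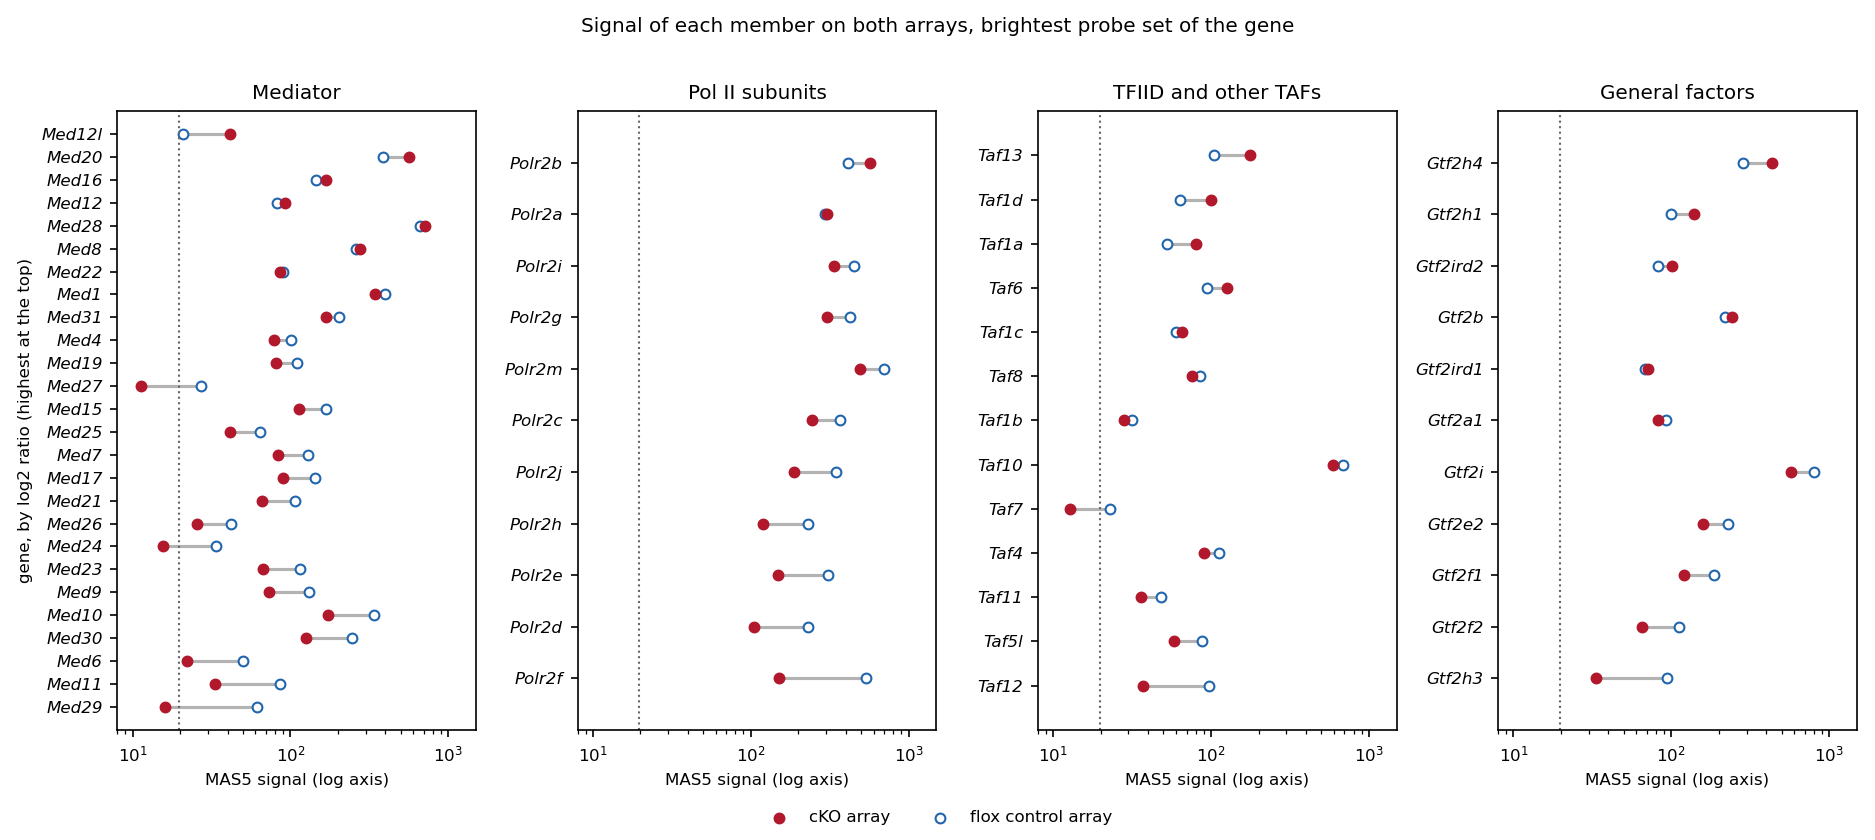
MAS5 signal (horizontal log axis) of the 61 members above the floor on at least 1 array, 1 row per gene, at the brightest probe set, with the cKO array as filled red points, the flox control array as open blue points, and the floor of 19.7 as a dotted line. Each panel runs from the highest log2 ratio at the top to the lowest at the bottom, and in the polymerase panel 9 of 11 genes have the cKO point to the left of the control point.

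Of the 11 genes of the polymerase, 9 had lower signals on the cKO array (81.8%, where 55.3% of all genes were lower). At least 2-fold lower were 3 of the 11 (27.3%, where 13.0% of all genes were). The 2 genes that were not lower were those of the catalytic core, which also have the longest genomic spans of the 11, as given below. Polr2a encodes the largest subunit, which carries the active site and the C-terminal repeat domain that is phosphorylated during transcription. It had a signal of 304 on the cKO array and 296 on the control array, a log2 ratio of 0.04. Polr2b, the second-largest subunit, which closes the active centre with Polr2a, had 569 on the cKO array and 414 on the control array (0.46). For Polr2a the signals nearly coincided, and for Polr2b the cKO array was the brighter one.

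The 3 measured subunits shared with RNA polymerases I and III, Polr2e, Polr2f and Polr2h, were lower, and the shared subunits Polr2k and Polr2l were not analysed here. Polr2f, a small subunit of the shared set, had the lowest ratio among members above the floor on both arrays, with signals of 152 on the cKO array and 538 on the control array, 3.55-fold lower (log2 ratio -1.83). Polr2e had 148 on the cKO array and 310 on the control array (-1.07), and Polr2h had 120 and 229 in the same order (-0.94). The other probe sets of Polr2f and Polr2e did not exceed the floor on either array, and the ratio of either gene therefore rests on 1 probe set.

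Among subunits specific to polymerase II, the stalk subunit Polr2d had a signal of 105.0 on the cKO array and 232 on the control array (-1.14). Its partner in the stalk, Polr2g, had 303 on the cKO array and 425 on the control array (-0.49), so both stalk genes were lower by different amounts. Polr2c and Polr2j, which pair with each other as an assembly platform of the enzyme, had log2 ratios of -0.57 and -0.90, and Polr2i, a subunit at the jaw of the enzyme linked to transcript cleavage and proofreading, had -0.42. Polr2m encodes Gdown1, a protein that associates with the polymerase and makes it depend on Mediator, and it had 490.1 on the cKO array and 696 on the control array (-0.51). The SD of the log2 ratio over the 11 genes was 0.61, close to the 0.64 between probe sets of a gene.

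The count of 9 lower genes of 11 was the same in 3 other scalings. In these the arrays were quantile normalized, each was centred on its median, or the trend of ratio on signal was removed. Of all genes, 48.0%, 41.4% and 50.8% were lower in the same order. The count at least 2-fold lower was less stable, at 1 of 11 in place of 3 under the first 2 scalings. There Polr2d had -0.99 and -0.86 and Polr2e -0.95 and -0.79. It stayed at 3 with the trend removed. Of all genes, 9.53%, 7.79% and 9.88% were at least 2-fold lower in the 3 scalings. These scalings moved the median of all genes from -0.10 to 0.03, 0.16 and -0.01. Relative to the median of all genes, the polymerase median was -0.47 as deposited and -0.55, -0.46 and -0.64 under the 3 scalings. Centring shifts nearly all ratios by the same amount. The median of any group relative to all genes can hardly change under it, so its value is no separate check. The genes for polymerases I and III, which share subunits with polymerase II, are set beside it from lists of their own subunits. Of 5 genes of polymerase I, 2 were lower and none past 2-fold (median 0.21), and of 6 genes of polymerase III above the floor, 2 were lower and none past 2-fold (median 0.08). These counts rest on the brightest probe sets. Every further measured probe set of polymerase I was lower, at -2.25 for Polr1d (brightest -0.90), -0.91 for Polr1c (brightest 0.86), -0.98 and -0.69 for Polr1a (brightest 0.21) and -0.59 for Polr1e (brightest 0.39). Further probe sets of polymerase III went both ways. The second of Polr3a gave -0.71, where the brightest gave 0.89, and that of Polr3d gave -0.98 (brightest -0.55). The second of Polr3e gave 1.16, past 2-fold higher (brightest 0.05), and the further ones of Polr3k gave 0.56, -0.02 and -0.81 (brightest 0.86). That of Polr3c, at the floor on the cKO array, gave -0.09 or lower (brightest -0.75).

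To show the sequence in front of these genes, the 150 bases before the transcription start are printed for 4 polymerase genes, from RefSeq on build GRCm38.p6. The first 2 belong to genes at least 2-fold lower, the last 2 to the catalytic core, and Polr2d is not shown. Polr2f lies at chr15:79141175-79141324 (plus strand), Polr2e at chr10:80039660-80039809 (minus strand), Polr2b at chr5:77310334-77310483 (plus strand) and Polr2a at chr11:69758634-69758783 (minus strand). Capitals mark matches on either strand to the motifs searched.
Polr2f: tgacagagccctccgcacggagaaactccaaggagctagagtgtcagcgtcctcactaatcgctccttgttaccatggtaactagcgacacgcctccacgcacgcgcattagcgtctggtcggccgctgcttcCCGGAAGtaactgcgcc
Polr2e: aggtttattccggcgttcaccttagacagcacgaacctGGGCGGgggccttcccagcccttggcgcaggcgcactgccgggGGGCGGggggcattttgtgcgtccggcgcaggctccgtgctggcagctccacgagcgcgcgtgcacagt
Polr2b: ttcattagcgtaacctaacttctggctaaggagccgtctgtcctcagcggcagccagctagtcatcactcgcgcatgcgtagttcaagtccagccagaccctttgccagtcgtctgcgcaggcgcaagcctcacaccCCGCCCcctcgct
Polr2a: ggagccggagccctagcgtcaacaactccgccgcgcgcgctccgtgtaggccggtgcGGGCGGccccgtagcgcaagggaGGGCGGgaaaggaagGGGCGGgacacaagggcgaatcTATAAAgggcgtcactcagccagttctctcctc
The capitals are an ETS match in Polr2f, GC boxes in Polr2e, Polr2b and Polr2a, and a TATA match in Polr2a. All are rich in G and C, from 59.3% in Polr2f to 69.3% in Polr2e.

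Promoters of 57 of the 65 members were matched in RefSeq, and 250 bases before the start listed first were searched on both strands. HIF proteins bind the core of the hypoxia response element. Only its form ACGTG was searched, so sites of the form GCGTG are neither counted nor marked. ACGTG stood in 15 of 57 member promoters (26.3%), where 16.6% of all 27025 promoters and 19.9% of those of genes on the array hold it. This form stood in none of 9 polymerase promoters, 3 of 23 Mediator promoters, 7 of 14 TAF promoters and 5 of 11 promoters of general factors. Of the 7 promoters of members at least 2-fold lower, 1 held it, that of Taf12, and of the 17 promoters of members higher by any amount, 5 did. So short a motif occurs often by its letters alone, and a match is not a binding site.
The ETS motif CCGGAAG stood in 14 member promoters (24.6%) against 11.6% of those on the array, the GC box GGGCGG in 32 (56.1%) against 53.2%, and TATAAA in 10 (17.5%) against 9.14%. The cyclic AMP response element TGACGTCA stood in 3 (5.26%) against 2.32%. The form of the hypoxia core searched shares the letters ACGT with that element, and no motif was placed by binding data.

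Of the general factors, TFIIF, which escorts the polymerase to the promoter, was lower in both of its genes. Gtf2f1 had a signal of 121 on the cKO array and 185 on the control array (log2 ratio -0.61), with the same ratio, -0.62, at its other probe set. Gtf2f2 had 64.9 on the cKO array and 112 on the control array (-0.79). Gtf2e2, the smaller subunit of TFIIE, which recruits TFIIH, had 158 on the cKO array and 230.1 on the control array (-0.54). TFIIB, which bridges TBP and the polymerase, went the other way by a small amount, as Gtf2b had 243 on the cKO array and 220.1 on the control array (0.14). TFIIA stabilizes TBP on DNA, and its gene Gtf2a1 had 82.3 on the cKO array and 92.0 on the control array (-0.16), while its second probe set had 46.8 on the cKO array and was at the floor on the control array, a log2 ratio of at least 1.25. The germ cell paralogue Gtf2a1l was at the floor on both arrays.

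TFIIH opens the promoter and phosphorylates the polymerase, and its core genes had the widest spread of any subgroup of several genes, with an SD of 1.19 over 3 genes. Gtf2h3 was 2.83-fold lower, with a signal of 33.2 on the cKO array and 94.0 on the control array (-1.50). Gtf2h1 had 140 on the cKO array and 99.4 on the control array (0.49). Gtf2h4 had 435 on the cKO array and 285 on the control array (0.61) at a probe set that can match several transcripts. Its other measured probe sets gave 64.7 on the cKO array against 133 on the control array (-1.03) and 45.4 against 70.1 (-0.63). The direction of Gtf2h4 was therefore not settled.

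Further TFIIH genes, taken from a list of partners, were within 2-fold at their brightest probe sets. The TFIIH core genes Gtf2h2 and Gtf2h5 were not analysed here. The helicases Ercc3 and Ercc2 had log2 ratios of 0.02 and -0.48. The kinase Cdk7 had -0.35, its cyclin Ccnh had 714 on the cKO array and 361 on the control array (0.98), and the assembly factor Mnat1 had 0.13. A second probe set of Ccnh gave -0.04 and a further one 1.11. TFII-I, encoded by Gtf2i and named as a general factor although it acts as a signal-dependent transcription factor, had 576 on the cKO array and 803 on the control array (-0.48), and its second measured probe set gave -1.15. Its relatives Gtf2ird1 and Gtf2ird2 had 0.06 and 0.28. In all, 6 of 11 general factor genes were lower (54.5%, where 55.3% of all genes were). At least 2-fold lower was 1 of them (9.09%), where 13.0% of all genes were, so neither share exceeded that of all genes.

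**Figure D2:**
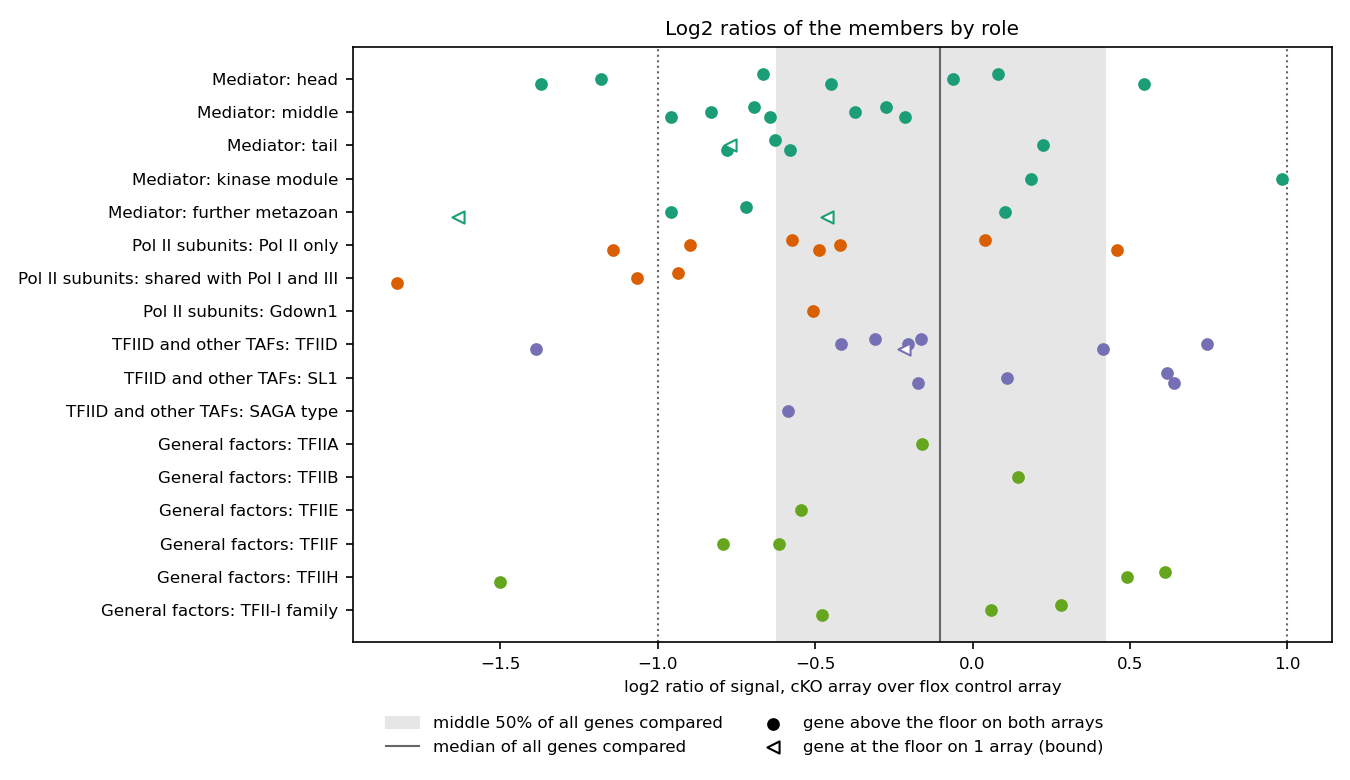
Log2 ratio of signal, cKO array over flox control array, for the 61 members by role, 1 point per gene, with open triangles for genes at the floor on the cKO array, whose ratio is a bound. The grey band is the middle 50% of all 8593 genes, the solid line their median of -0.10, and the dotted lines mark 2-fold, which 8 members pass on the lower side and none on the higher side.

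TFIID binds the core promoter through TBP and its TAFs, many of which pair through histone folds. Taf12 alone was past 2-fold, with a signal of 37.0 on the cKO array and 96.8 on the control array, 2.61-fold lower (log2 ratio -1.39). Its histone-fold partner Taf4 had 90.7 on the cKO array and 112 on the control array (-0.31), and -0.55 at its other probe set. Taf13 had 176 on the cKO array and 104.8 on the control array (0.74), while its histone-fold partner Taf11 had 35.9 on the cKO array and 47.9 on the control array (-0.42). The members of both pairs thus differed from each other, and those of the second pair in sign. Taf10 had 595 on the cKO array and 686 on the control array (-0.20), and its partner Taf8 had 76.3 and 85.5 in the same order (-0.16). Taf6, another histone-fold TAF, had 126 on the cKO array and 94.8 on the control array (0.41). Taf7 had 12.9 on the cKO array, under the floor, and 23.0 on the control array, a log2 ratio of -0.22 or lower, and its other probe set gave at least 0.05. TBP itself, which has no TAF symbol, had 45.2 on the cKO array and 77.9 on the control array (-0.79).

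Not all genes with a TAF symbol serve TFIID. Taf1a, Taf1b, Taf1c and Taf1d encode the TAFs of SL1, the factor that places RNA polymerase I on ribosomal DNA. Taf1a had 80.6 on the cKO array and 52.5 on the control array (0.62), Taf1c had 65.0 and 60.2 in the same order (0.11), and Taf1b had 28.2 on the cKO array and 31.8 on the control array (-0.17). Taf1d had 99.5 on the cKO array and 63.9 on the control array at its brightest probe set (0.64), and its other 3 measured probe sets were higher too, at 0.97, 1.54 and 0.10. The median of these 4 genes was 0.36, that of the 8 TFIID genes -0.21. Taf5l, a paralogue of Taf5 found in the SAGA coactivator, had 58.2 on the cKO array and 87.4 on the control array (-0.59), and its companion Taf6l and the germ cell paralogue Taf7l were at the floor on both arrays. Over all TAF genes 8 of 13 were lower as deposited (61.5%, where 55.3% of all genes were). In those 3 scalings 5, 4 and 6 of 13 were lower in the same order, where 48.0%, 41.4% and 50.8% of all genes were. Relative to all genes, the TAF median was -0.07 as deposited and 0.05, -0.05 and 0.03 under these scalings, so no direction holds for the group.

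Mediator, the largest of the groups, was lower in 20 of 26 genes above the floor (76.9%). Of these, 3 were at least 2-fold lower (11.5%), which is below the background share of 13.0%. The head module contacts the polymerase and the general factors. Med11 had a signal of 33.1 on the cKO array and 85.7 on the control array, 2.59-fold lower (log2 ratio -1.37), and Med6 had 22.1 on the cKO array, just above the floor, and 50.1 on the control array (-1.18). Med6 was no longer past 2-fold when the arrays were quantile normalized (-0.93), centred (-0.90) or freed of the signal trend (-0.96), which left 2 Mediator genes at least 2-fold lower. Med17, the scaffold of the head, had 89.9 on the cKO array and 143 on the control array (-0.67), and Med19 and Med22 had -0.45 and -0.06. Med8 had 275 on the cKO array and 259.7 on the control array (0.08). Med20 had 563 on the cKO array and 386 on the control array (0.54), but its other probe set had 62.4 and 115 in the same order (-0.89). Med11, Med6, Med8 and Med22 have 1 probe set each.

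The middle module links head and tail. As deposited, all 7 of its genes were lower on the cKO array at their brightest probe sets, with log2 ratios of -0.96 to -0.21, a median of -0.64 and an SD of 0.29. Med10 had 174 on the cKO array and 338 on the control array (-0.96), just under 2-fold. Med9 had 73.6 on the cKO array and 131 on the control array (-0.83), with -0.68 at its other probe set. Med21 and Med7, which form the hinge of the module with each other, had -0.70 and -0.64, with signals of 66.2 on the cKO array and 107.2 on the control array for Med21. Med4 had -0.37 and Med31 -0.27. Med1, the subunit through which nuclear receptors such as those for steroid and thyroid hormones contact Mediator, had 341 on the cKO array and 396 on the control array (-0.21). Its direction differed between probe sets, as the second gave 0.54 and the third -0.85, and after centring of each array on its median Med1 (0.065) and Med31 (0.0042) were no longer below 0 at their brightest probe sets either.

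The tail module receives activators. Med23, a target of Elk1 and E1A, had 67.3 on the cKO array and 116 on the control array (-0.78), Med15, which binds Smad and sterol-responsive activators, had 113 and 168 in the same order (-0.58), and Med25 had -0.63. Med24 had 15.7 on the cKO array, under the floor, and 33.6 on the control array, and was at least 1.70-fold lower. Med16 alone was higher, with 169 on the cKO array and 144.9 on the control array (0.22). Med14, the backbone that holds the modules together, was at the floor on both arrays at its only probe set. The floor does not show that a gene is silent.

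Among Med26 to Med30, subunits first described in animals, Med29 had the lowest ratio of Mediator, with a signal of 16.0 on the cKO array and 61.2 on the control array, at least 3.10-fold lower. Med30 had 126 on the cKO array and 244 on the control array (-0.96) and Med26, which joins Mediator to elongation factors, had 25.6 and 42.2 in the same order (-0.72). Med27 had 11.4 on the cKO array and 27.2 on the control array and was at least 1.38-fold lower. Med28 had 707 on the cKO array and 658 on the control array (0.10), with -0.08 at its other probe set.

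The kinase module, which docks reversibly and restrains or aids the core complex, was higher in both of its measured members. Med12 had 93.0 on the cKO array and 81.7 on the control array (0.19). Med12l, its paralogue, had 41.5 on the cKO array and 21.0 on the control array (0.98), the highest ratio of any member, with the control value close to the floor. The partners of this module from the fixed list were higher too, as Cdk8 had 323 on the cKO array and 240 on the control array (0.43) and its cyclin Ccnc had 64.3 and 42.8 in the same order (0.59). All 4 measured genes of the kinase module were above 0 at their brightest probe sets as deposited, although Med12, Cdk8 and Ccnc differed by less than the SD of 0.64 between probe sets of a gene. Med12l passed 2-fold under each of the 3 scalings, with log2 ratios of 1.22 when quantile normalized, 1.20 when centred and 1.17 with the signal trend removed. The median of Mediator relative to all genes was -0.50 as deposited and -0.41, -0.49 and -0.37 under those scalings, in which 19, 17 and 20 of 26 genes were lower.

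Genes that act on the polymerase after assembly were described from lists of their own. Of 21 genes of pausing and elongation above the floor, 13 were lower (61.9%, where 55.3% of all genes were), with a median of -0.27. None was at least 2-fold lower, where 13.0% of all genes were, and 1 was at least 2-fold higher (4.76%, where 6.21% of all genes were). That was Ell2, an elongation factor, with 260 on the cKO array and 116 on the control array (1.16). All 4 genes of the pausing complex NELF were lower, with log2 ratios of -0.60 for Nelfa, -0.34 for Nelfb, -0.65 for Nelfcd and -0.94 for Nelfe. Those of Nelfa and Nelfb were smaller than the SD of 0.64 between probe sets of a gene. The pause-release kinase Cdk9 had 222 on the cKO array and 424 on the control array (-0.94). In the same list 8 genes were higher, among them Tcea1 (0.90), Supt16 (0.83), Cdc73 (0.79) and Elob (0.72, but -0.81 at its second probe set). Of 20 genes of capping, of phosphatases of the C-terminal domain and of Integrator, 13 were lower (65%), with a median of -0.21. At least 2-fold lower were 2 of them (10%), which is below the background share of 13.0%. Both of these are phosphatases, Ctdsp1 with 76.6 on the cKO array and 278 on the control array (-1.86) and Ssu72 with 122 and 342 in the same order (-1.49). Over the 9 partners of the Mediator kinase and of TFIIH, with TBP and its paralogue Tbpl1, 4 were lower (44.4%) and none was past 2-fold (median 0.02). The counts for these lists rest on the brightest probe sets. Further probe sets were past 2-fold higher for Ints6 (1.60), Eloc (1.30), Ctr9 (1.14) and Ccnh (1.11). They were past 2-fold lower for Ints5 (-1.48, brightest 0.48), Ctdsp2 (-1.29), Ints13 (-1.19) and Ints3 (-1.03 or lower).

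Further probe sets bear on how far a single ratio can be read. Of 98 probe sets of the members, 72 were above the floor on both arrays, 7 on 1 array and 19 on neither. For 47 members 1 probe set was measured. Of the 14 members with several, 7 had the same sign at all of them, 6 lower (Gtf2f1, Gtf2i, Med9, Taf10, Taf4 and Taf8) and 1 higher (Taf1d), and 7 had both signs (Gtf2a1, Gtf2h4, Med1, Med19, Med20, Med28 and Taf7). None of the 8 members at least 2-fold lower had a second measured probe set, since 5 have 1 probe set in all and the further ones of the other 3 were at the floor.

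**Figure D3:**
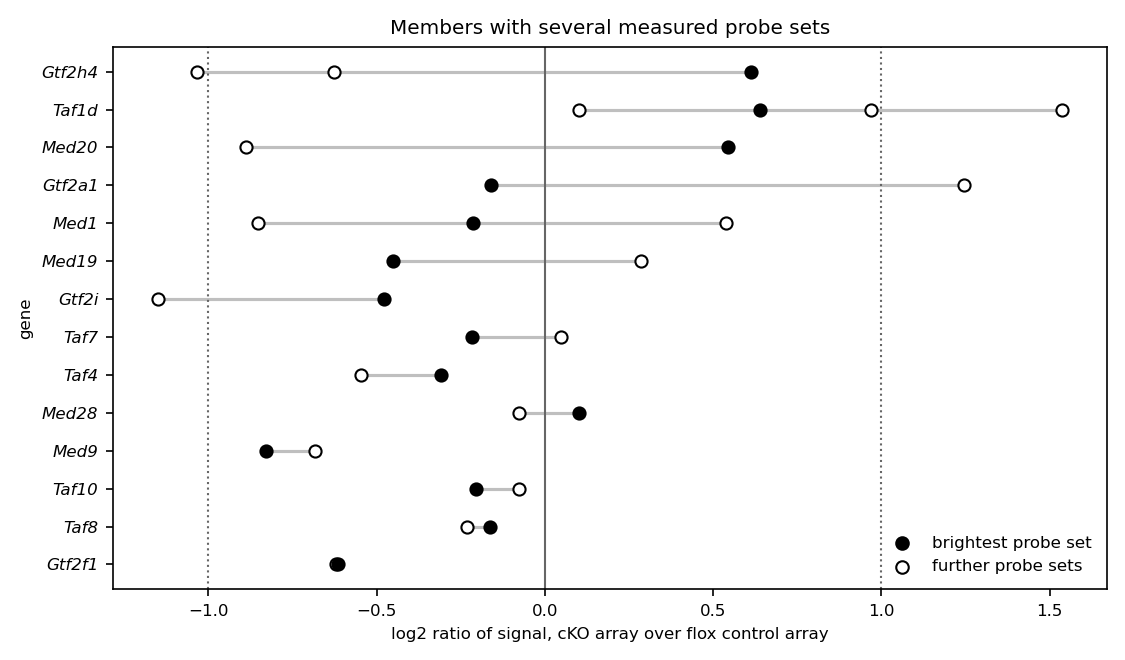
Log2 ratio of signal, cKO array over flox control array, at each measured probe set of the 14 members with several, filled for the brightest and open for the others, with genes ordered by their range, dotted lines at 2-fold, and bounds among the points of Gtf2a1, Taf7 and Taf8. The range is widest for Gtf2h4, from -1.03 to 0.61, and 7 of the 14 genes have points on both sides of 0.

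The ratio of all genes went with the genomic span of a gene (exons and introns, from RefSeq), and the medians of the members differed less between spans. Over all 8588 genes with a span, Spearman's rho between log2 ratio and span was 0.23, and over the 61 members 0.13. These are descriptions across genes of the same pair of arrays. In 3 equal groups by span, the median log2 ratio of all genes was -0.34 in the shortest, -0.11 in the middle and 0.10 in the longest group. The members had -0.42 over 29 genes, -0.59 over 19 genes and -0.46 over 13 genes in the same order of groups. In the longest group, with spans of at least 36869 bases, 10 of 13 members were lower (76.9%), where 44.3% of all genes there were lower. They were Med1, Med15, Med23, Med26, Med27, Gtf2e2, Gtf2f2, Gtf2i, Taf1b and Taf4. This count is as deposited at the brightest probe sets, with a bound for Med27. Taf1b was above 0 under the 3 scalings (0.071, 0.11 and 0.018), and Med1 after centring (0.065) and at its second probe set (0.54). All 8 members past 2-fold lay in the shortest and middle groups, with 5 of 29 (17.2%) in the shortest, where 20.2% of all genes were at least 2-fold lower, and 3 of 19 (15.8%) in the middle, where 12.2% were.

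**Figure D4:**
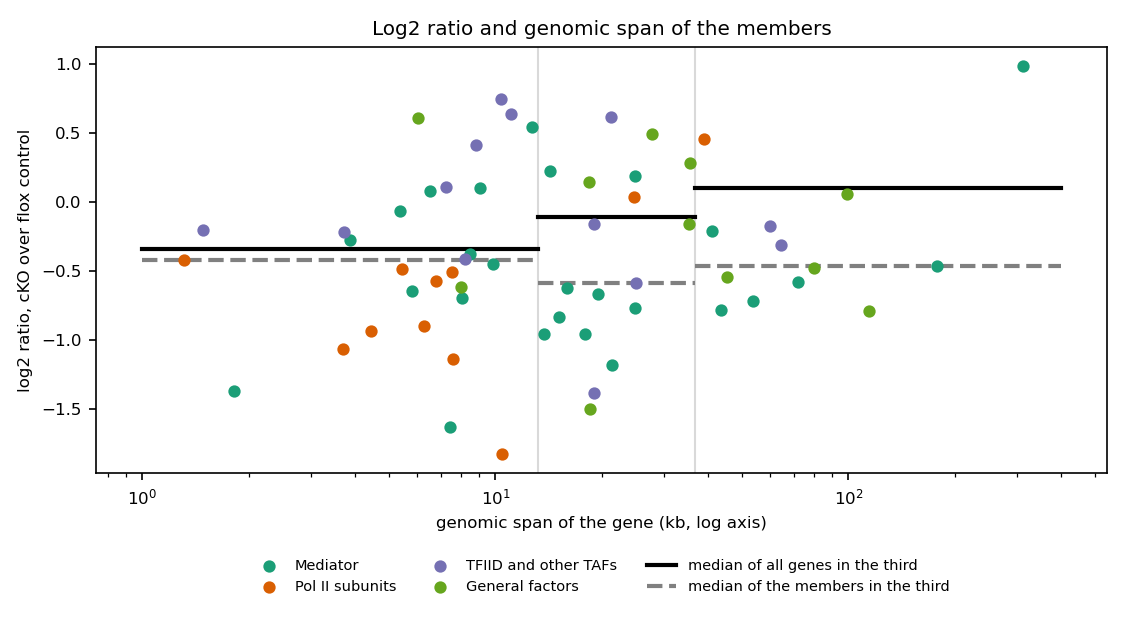
Log2 ratio of signal, cKO array over flox control array, against genomic span (log axis, kb) for the 61 members, coloured by group, with grey vertical lines between 3 equal groups of all genes by span. Solid bars give the median of all genes in each group (-0.34, -0.11 and 0.10) and dashed bars that of the members (-0.42, -0.59 and -0.46).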

How the data were processed

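Per the labels' protocols, Trizol-extracted RNA was purified on RNeasy columns and labelled with biotin by the Affymetrix 3' Express kit, which starts at the poly-A end. The deposited intensities are MAS5 signals made by the authors in Affymetrix Expression Console version 1, per the submitters' processing notes. Their scaling was kept, since both arrays had a trimmed mean of 150.1 (2% off each end).

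Of 22690 probe sets, 64 were controls and 20380 had 1 gene symbol, which was updated through Entrez identifiers in RefSeq (GRCm38.p6) for 20351. Probe sets with several symbols (691) or none (1555) were left out, among them 5 that name a member and another gene. Floor, log2 ratio and brightest probe set were as described with the results, and log2 is of the floored deposited intensity. Groups came from the titles. With 1 array per group there is no test. Genes were counted by a rule of at least 2-fold. Members and lists were chosen with earlier results of these data known. Every member is accounted for, with signals for those past 2-fold and for those whose probe sets oppose each other. Pathway genes are named when past 2-fold, as partners of a named complex, or as examples in either direction. The planned protein lengths were replaced by genomic spans because no protein table was used here.

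Alternatives were quantile normalization, median centring, a loess correction of the ratio for mean signal (span 0.4), floors at the 25th and the 60th percentile, the median over probe sets, and leaving out probe sets with the suffix _s_at or _x_at. The size rule was run on simulated data as a check of the calculation only. Those data had less noise than that between probe sets here, and changes well past 2-fold in genes far above the floor. They cannot show how often the rule errs on these arrays. Python 3.11.15, NumPy 2.4.6, pandas 2.3.3, SciPy 1.17.1, statsmodels 0.14.6 and Matplotlib 3.10.9 were used.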

Additional observations from a re-analysis of the deposited data

Results flagged for a closer look

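The control probe sets, which enter no gene result, carry a signal that separates the arrays. The ratio of 3' to 5' signal of b-actin was 16.0 on the cKO array, against 2.27 on the control array, a 7.08-fold difference. Its part in the ratios of the transcription machinery was not tested.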

How the results depend on the processing

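Polr2f was at least 2-fold lower under all 7 alternatives, with log2 ratios of -1.84 to -1.55, and no member past 2-fold changed sign under any of them in which it was measured. Quantile normalization, median centring and removal of the signal trend turned the median of the TAFs to 0.087, 0.12 and 0.018 and that of the general factors to 0.077, 0.12 and 0.10. Each of these 3 scalings put 1 Mediator gene of 26, Med12l, at least 2-fold higher, and median centring also 1 TAF of 13, Taf13. Of all genes, 8.28%, 13.3% and 7.59% were at least 2-fold higher in these scalings. The count of polymerase genes at least 2-fold lower was 1 of 11, in place of 3, after quantile normalization and after median centring. The count of Mediator genes at least 2-fold lower was 2 of 26 under each of the 3 scalings, without Med6. Of all genes, 9.53%, 7.79% and 9.88% were at least 2-fold lower in these scalings. With the 25th percentile as floor, at which Med29 was measured on both arrays and had -1.94, below Polr2f, 5 Mediator genes and 2 TAF genes were at least 2-fold lower. With the floor at the 60th percentile, which left 19 Mediator genes, 9 TAF genes and 11 general factor genes, the counts at least 2-fold lower were 0 for Mediator, 0 for the TAFs and 0 for the general factors, by construction, since dim signals are raised. Without _s_at and _x_at probe sets 2 general factor genes were at least 2-fold lower. The median of the general factors was -0.54 with the median over probe sets and -0.48 without _s_at and _x_at probe sets. Relative to all genes, the medians of Mediator lay between -0.56 and -0.32 and those of the polymerase between -0.64 and -0.34 over the 7 alternatives. All genes split into 711 at least 2-fold higher and 818 lower after quantile normalization, 1146 and 670 after median centring and 652 and 849 after removal of the signal trend, against 534 and 1119 as deposited. No paired analysis was possible because each group has 1 array. Signals near the floor of 19.7, as for Med6, Med12l, Med24, Med27, Med29 and Taf7 on 1 array, limit what their ratios can show.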
